A study of Homo sapiens with 4 samples.

Results

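Distal first-intron peaks are the open chromatin peaks that the authors placed in intron 1 of a transcript at more than 1000 bp from the nearest transcription start site (TSS). They were chosen from the annotation and the distance deposited with each peak, and no measured value entered the choice. There were 5692 of them among 44760 peaks in shARID1A cells with rapamycin, 5820 of 45700 in shARID1A cells with DMSO, 6625 of 49783 in shControl cells with rapamycin and 7051 of 52192 in shControl cells with DMSO. Across the 4 lists this made 25188 of 192435 peaks.

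The lists come from ATAC-seq, in which a transposase inserts adapters into accessible DNA, of Huh7, an established line of human liver cancer cells. Cells carried a short hairpin RNA against ARID1A (shARID1A), a subunit of the SWI/SNF chromatin remodeller found in its BAF complexes, or a control hairpin (shControl). Each was given 100 nM rapamycin, an inhibitor of the mTORC1 kinase complex, for 6 h, or DMSO. Nuclei of 50000 cells entered each library, and each of the 4 groups was 1 library, so no test between groups could be made and no p-value is given. The sequence and number of the hairpins, and whether the cells were pools or clones, were not given in the sources used here. Peak lists do not measure ARID1A RNA or protein, so the knockdown itself could not be checked in them.

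The first intron is the stretch of a gene that follows its first exon. It is often the longest intron, and in mammals it commonly holds enhancers, alternative promoters and other elements that bind transcription factors and act on the gene from inside its transcribed body. Enhancers are a main place of action of BAF complexes, while promoters of broadly used genes are open in most cell types.

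Several of the strongest distal first-intron peaks, and weaker ones such as that of PDGFRA, held the start of their own host gene as RefSeq places it. In all, 5 such starts are shown so that the sequence under these peaks can be read. Each run is the 250 bases upstream of the RefSeq start on the gene's own strand (GRCh38.p14). Capitals mark matches on either strand to the letters GGGCGG, the core of the GC box bound by SP factors, or GGAATG, the core bound by TEAD factors. The windows lie at chr11:67239764-67240013 (+ strand) for KDM2A, a histone demethylase gene, at chr20:34302991-34303240 (- strand) for AHCY, the gene of the enzyme that hydrolyses S-adenosylhomocysteine, and at chr3:48088849-48089098 (- strand) for MAP4, a microtubule-binding protein gene. For CENPF, a kinetochore protein gene, the window is chr1:214602945-214603194 (+ strand), and for PDGFRA, a growth factor receptor gene, chr4:54233710-54233959 (+ strand).
KDM2A: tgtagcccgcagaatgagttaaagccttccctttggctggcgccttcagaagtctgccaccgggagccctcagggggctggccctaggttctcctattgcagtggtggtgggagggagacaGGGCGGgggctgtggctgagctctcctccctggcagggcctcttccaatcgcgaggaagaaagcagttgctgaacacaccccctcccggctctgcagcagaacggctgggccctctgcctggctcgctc
AHCY: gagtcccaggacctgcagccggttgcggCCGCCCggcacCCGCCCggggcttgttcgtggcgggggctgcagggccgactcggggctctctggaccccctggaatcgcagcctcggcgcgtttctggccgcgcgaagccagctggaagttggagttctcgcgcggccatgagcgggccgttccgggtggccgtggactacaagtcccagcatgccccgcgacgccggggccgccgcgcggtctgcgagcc
MAP4: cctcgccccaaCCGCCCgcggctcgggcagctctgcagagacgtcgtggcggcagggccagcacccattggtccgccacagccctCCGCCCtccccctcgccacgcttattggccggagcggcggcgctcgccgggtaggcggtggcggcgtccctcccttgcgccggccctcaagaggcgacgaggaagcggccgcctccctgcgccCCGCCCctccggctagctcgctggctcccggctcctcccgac
CENPF: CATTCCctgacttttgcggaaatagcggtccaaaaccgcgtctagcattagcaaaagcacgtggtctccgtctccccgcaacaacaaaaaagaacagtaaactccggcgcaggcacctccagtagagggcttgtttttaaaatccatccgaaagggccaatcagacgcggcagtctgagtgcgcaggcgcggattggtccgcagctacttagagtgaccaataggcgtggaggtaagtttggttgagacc
PDGFRA: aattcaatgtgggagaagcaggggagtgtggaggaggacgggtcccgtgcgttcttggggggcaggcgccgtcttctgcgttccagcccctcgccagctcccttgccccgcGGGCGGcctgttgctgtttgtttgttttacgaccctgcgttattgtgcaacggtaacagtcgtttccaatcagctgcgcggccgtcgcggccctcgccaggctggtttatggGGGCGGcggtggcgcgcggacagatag
The KDM2A window is 64.0% G and C and holds 1 GC box, the AHCY window 74.4% with 2, and the MAP4 window 76.8% with 3. The CENPF window is 52.8% G and C and holds 1 TEAD core and no GC box, and the PDGFRA window 64.0% with 2 GC boxes. A match is a description of the letters and not a bound site.

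The TSS from which the deposited distance is counted changed between lists at the same place. The KDM2A peak was put at 25993 bp from the nearest TSS in shARID1A with rapamycin, 26010 bp in shARID1A with DMSO, 438 bp in shControl with rapamycin and 26094 bp in shControl with DMSO. The AHCY peak stood at 8781 bp, 311 bp, 8717 bp and 276 bp in the same libraries. The MAP4 peak stood at 821, 6708, 6618 and 496 bp, and the CENPF peak at 5336, 293, 5341 and 5341 bp. The PDGFRA peak was distal in every list, at 4341, 4239, 4395 and 4465 bp, although it covers the RefSeq start. Over all pairs of a first-intron peak and its best-overlapping peak in another list, both peaks gave the same TSS position to within 5 bp in 67.6% of pairs for shARID1A with rapamycin, 68.0% for shARID1A with DMSO, 67.1% for shControl with rapamycin and 67.4% for shControl with DMSO. The host gene was the same in 97.1%, 97.6%, 97.4% and 97.5% of pairs.

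The class was steadier than the TSS. The overlapping peak of the other list was again a distal first-intron peak in 91.4%, 92.6%, 92.7% and 92.8% of pairs, lay within 1 kb of a TSS in 4.84%, 4.28%, 3.82% and 4.06%, and was placed in a later intron in 2.34%, 1.74%, 2.04% and 1.86%. Distal peaks of later introns (intron 2 or higher) met a peak of their own class in 96.6%, 96.3%, 96.4% and 96.5% of pairs. Results below take each peak by the annotation of its own list, and an overlap with any peak of another list counts, whatever its annotation.

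Distal first-intron peaks made up between 35.1% and 36.2% of the distal intronic peaks of a library. Their share was 36.2% (95% interval 35.4 to 37.0) in shARID1A with rapamycin, 35.8% (35.1 to 36.6) in shARID1A with DMSO, 35.1% (34.5 to 35.8) in shControl with rapamycin and 35.2% (34.5 to 35.9) in shControl with DMSO. Intervals here and below are exact binomial ones unless a difference is given, and they cover counting error only, not the variation between cultures. The intervals of the 4 libraries overlapped. Of the whole list, first-intron peaks were 12.7%, 12.7%, 13.3% and 13.5%.

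First introns also held many peaks that the distance rule left out. Within 1 kb of a TSS lay 22.0%, 22.5%, 20.9% and 18.9% of all first-intron peaks in the 4 libraries, against 1.20%, 1.03%, 1.03% and 0.961% of peaks in later introns. Just inside the limit, at 1000 to 1500 bp, 74.1%, 64.4%, 63.3% and 65.0% of first-intron peaks were found in every other list, and just outside it, at 500 to 1000 bp, 81.5%, 78.7%, 82.9% and 80.6%. The first set held 305, 298, 286 and 306 peaks, and the second 481, 464, 474 and 479.

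Distal first-intron peaks sat closer to a TSS than those of later introns and more often nearest to their own host gene. Their median distance was 13410 bp in shARID1A with rapamycin, 13110 bp in shARID1A with DMSO, 13490 bp in shControl with rapamycin and 13890 bp in shControl with DMSO, against 22520, 21660, 23580 and 22900 bp for later introns. The host was the nearest gene for 54.7%, 55.6%, 55.3% and 54.4% of them, against 30.3%, 31.1%, 30.3% and 30.8% for later introns. They were a little wider, with medians of 607.5, 676, 665 and 619 bp against 581, 641, 636 and 586 bp. A transcript with a single intron accounted for 10.1%, 10.4%, 10.2% and 10.2% of them, and such a transcript has no later intron to compare with.

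By strength, most distal first-intron peaks were in the lower part of their list, where they resembled later-intron peaks. A larger share of them than of later-intron peaks was in the strongest 10%. The score is the authors' own, on a scale not given in the sources used here. Peaks were ranked by it within a list, with 0% the strongest and 100% the weakest. The median rank was 62.9%, 62.3%, 60.1% and 59.6% of list length for first introns and 62.4%, 62.7%, 61.4% and 59.8% for later introns. The strongest 10% of a list held 128 first-intron peaks in shARID1A with rapamycin, 138 in shARID1A with DMSO, 193 in shControl with rapamycin and 227 in shControl with DMSO. These were 2.25%, 2.37%, 2.91% and 3.22% of them, against 1.05%, 1.04%, 1.85% and 2.15% of later-intron peaks. The strongest 1% held 8 of 5692, 6 of 5820, 6 of 6625 and 5 of 7051 first-intron peaks. Of later-intron peaks it held 3 of 10029, 5 of 10431, 10 of 12227 and 13 of 12986, so the lead was not seen there in every library.

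The first-intron peaks of that top decile often lay at RefSeq starts. Centred within 1 kb of one were 31.3%, 34.8%, 23.8% and 20.7% of them in the 4 libraries, against 9.52%, 10.2%, 4.87% and 4.66% of later-intron peaks of the same decile. Over all strengths the numbers were 410 (7.20%), 405 (6.96%), 434 (6.55%) and 414 (5.87%) first-intron peaks, against 207 (2.06%), 210 (2.01%), 227 (1.86%) and 232 (1.79%) later-intron peaks. For 315, 311, 323 and 309 of these first-intron peaks the start was that of their own host.

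**Figure D1:**
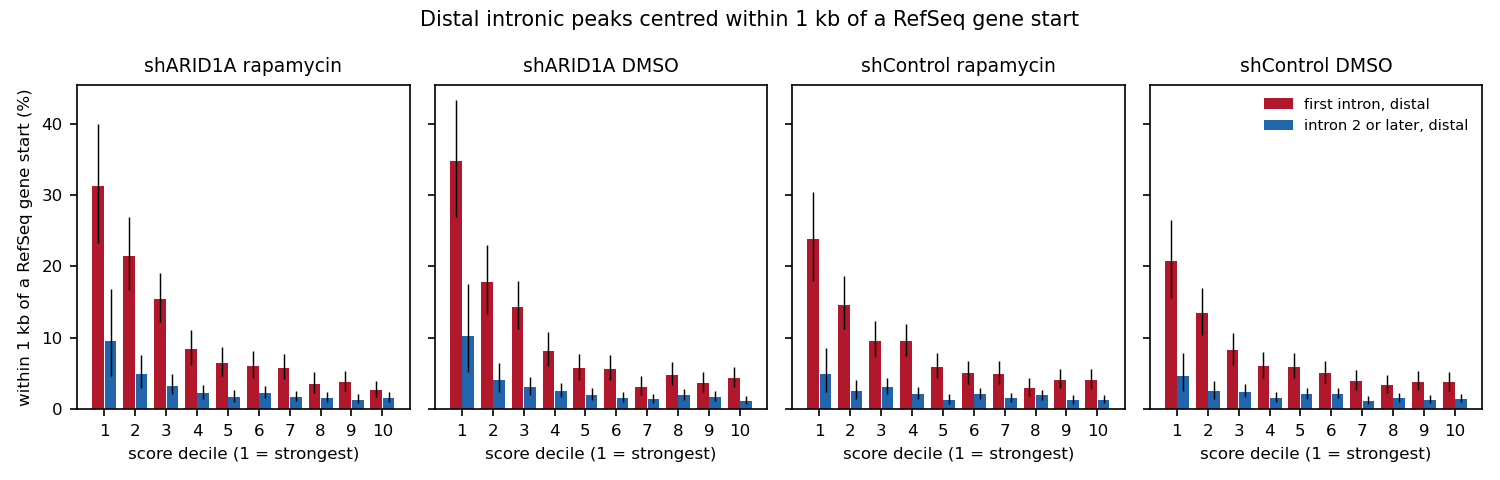
Share of distal first-intron peaks (red) and later-intron peaks (blue) centred within 1 kb of a RefSeq gene start (y axis, %), by decile of the score within each list (x axis, 1 = strongest), with exact 95% intervals, for the 4 libraries. In the strongest decile the first-intron share was 31.3%, 34.8%, 23.8% and 20.7% from the left panel to the right, above the later-intron share in each.

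Distal first-intron peaks were found in every other list more often than later-intron peaks of similar score. All 3 other lists held an overlapping peak, by at least 1 bp, for 64.9% (95% interval 63.6 to 66.1) of the first-intron peaks of shARID1A with rapamycin, for 62.2% (60.9 to 63.5) in shARID1A with DMSO, for 54.5% (53.3 to 55.7) in shControl with rapamycin and for 51.8% (50.6 to 52.9) in shControl with DMSO. Over all peaks of these lists the shares were 70.9%, 69.4%, 63.5% and 60.9%, so first-intron peaks were found again less often than the average peak, a comparison that includes the strong promoter peaks. Later-intron peaks, weighted to the score deciles of the first-intron peaks, reached 60.8%, 59.0%, 50.9% and 48.0%. First introns exceeded them by 4.10 percentage points (95% interval 2.84 to 5.37) in shARID1A with rapamycin and 3.23 (2.01 to 4.46) in shARID1A with DMSO. In shControl they did so by 3.58 (2.45 to 4.71) with rapamycin and 3.77 (2.68 to 4.87) with DMSO. Peaks found in every list are largely the same regions counted from each list, so the 4 leads are not independent of each other.

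The lead of first introns was not equal at all scores. In the strongest decile, 128 of 128, 138 of 138, 193 of 193 and 227 of 227 first-intron peaks were found in all lists, as were 105 of 105, 108 of 108, 225 of 226 and 278 of 279 later-intron peaks. In the sixth decile, the first-intron shares were 78.2%, 77.3%, 61.6% and 53.9% against 71.1%, 72.1%, 56.4% and 52.9%. In the weakest decile they were 19.2%, 13.7%, 8.21% and 7.60% against 17.1%, 9.96%, 7.07% and 5.76%. The intervals of the 2 classes overlapped in the weakest decile in every library.

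**Figure D2:**
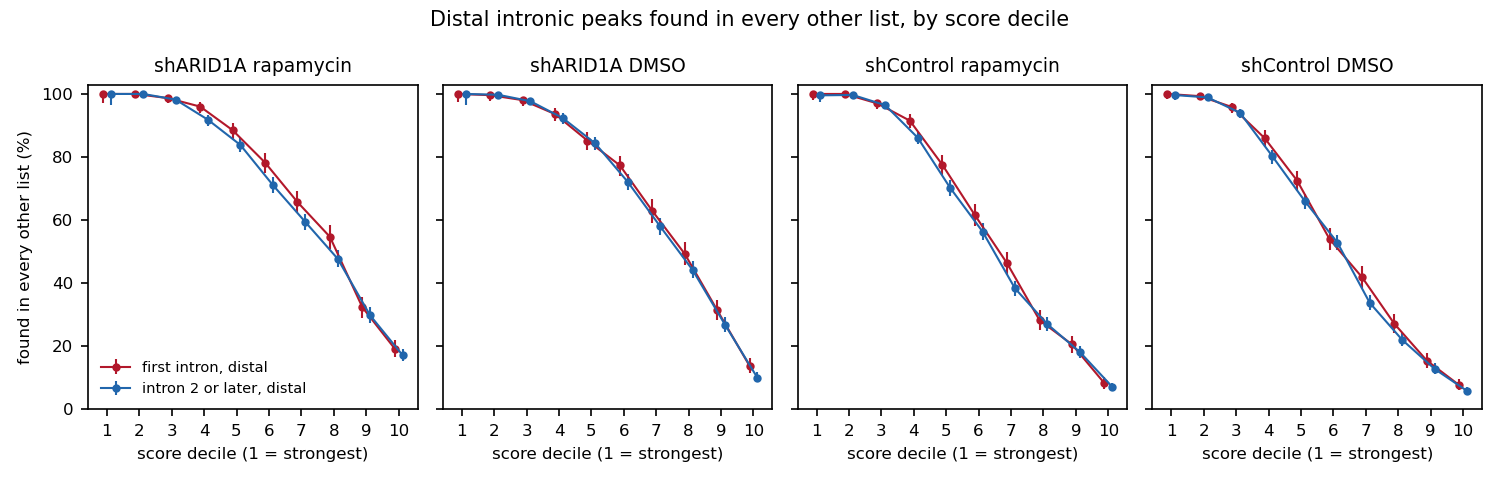
Share of distal first-intron peaks (red) and later-intron peaks (blue) with an overlapping peak in all other lists (y axis, %), by decile of the score within each list (x axis, 1 = strongest), with exact 95% intervals, for the 4 libraries. The share is near 100% in the strongest decile and between 7.60% and 19.2% for first introns in the weakest.

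The lead of first introns over later introns differed in size with distance from the TSS. At 1 to 5 kb the first-intron share, weighted to a common set of score deciles, was 62.8% against 59.1% for later introns in shARID1A with DMSO and 58.9% against 55.1% in shControl with rapamycin. Above 100 kb the sign was not the same in all libraries. There it was 61.9% against 58.9% in shARID1A with rapamycin, 55.7% against 57.3% in shARID1A with DMSO, 46.1% against 46.8% in shControl with rapamycin and 44.3% against 43.7% in shControl with DMSO. The intervals overlapped in each, and the fewest first-intron peaks left were 156, in shARID1A with rapamycin. Matching later introns on distance class as well as on score kept a lead of 2.84 to 4.07 points over the 4 libraries, and matching them on score and on peak width, in 5 classes, lowered it to 2.31 to 3.15 points. Leaving out every peak within 1 kb of a RefSeq start kept one of 3.31 to 4.10 points, and keeping only peaks placed in the same class by every overlapping list kept one of 3.17 to 3.71 points. Within genes that were nearest to peaks of both classes, the lead was 0.670 points (-2.26 to 3.60) in shARID1A with rapamycin, 1.38 (-1.40 to 4.16) in shARID1A with DMSO, 3.17 (0.655 to 5.69) in shControl with rapamycin and 2.84 (0.461 to 5.22) in shControl with DMSO.

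**Figure D3:**
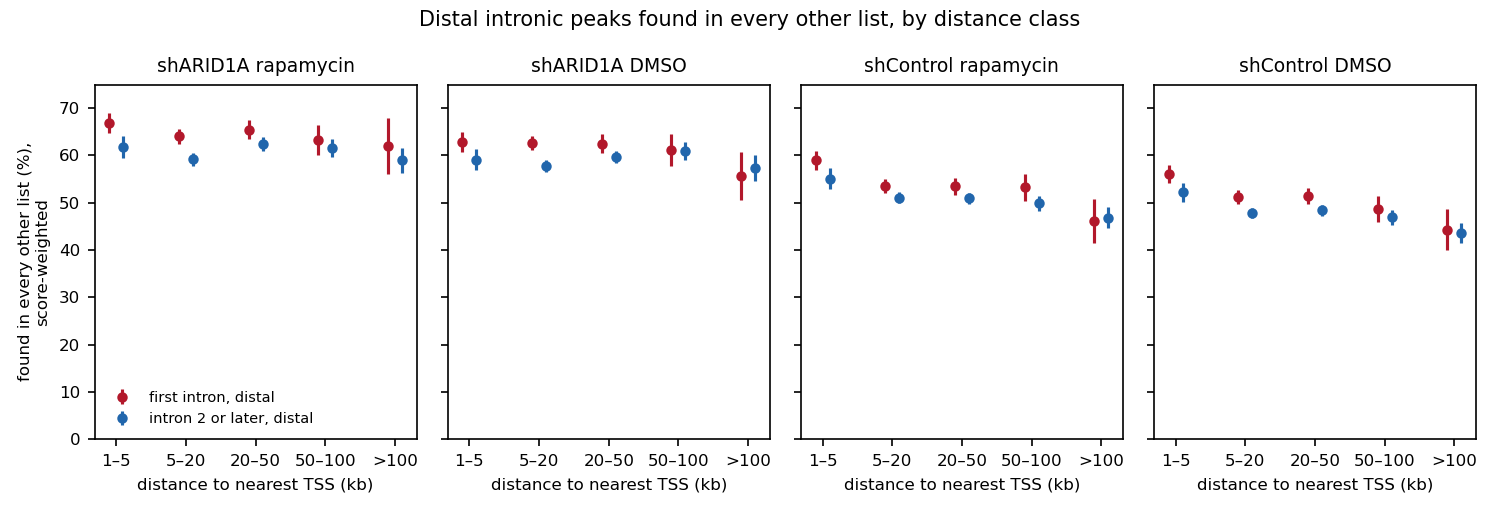
Share of distal first-intron peaks (red) and later-intron peaks (blue) found in every other list, weighted to common score deciles (y axis, %), by distance to the nearest TSS (x axis, kb), with 95% intervals from counting error, for the 4 libraries. First introns are above later introns up to 50 kb in every library, and above 100 kb the intervals overlap.

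Merging overlapping first-intron peaks of the 4 lists gave 10696 regions in 5439 host genes, of which 3258 hosts had 1 region and 430 had 5 or more. All 4 lists had a peak in 4252 regions (39.8%), against 33.6% of 19324 later-intron regions, and a single list in 3366 (31.5%), against 35.3%. The peaks of the regions in all lists were placed in the first intron and distal by every list in 3171 (74.6%). Among the 215 regions in all lists with a mean rank in the top 10%, this held for 94 (43.7%), and as many lay near a RefSeq start. Regions in both shARID1A lists and neither shControl list numbered 178 (1.66%), against 709 (6.63%) in both shControl lists and neither shARID1A list, and for later introns the shares were 2.02% and 6.79%. Regions in both rapamycin lists and neither DMSO list numbered 181 (1.69%), and those in both DMSO lists and neither rapamycin list 228 (2.13%). For later introns these shares were 1.83% and 2.36%. The crossed pairs, which share neither hairpin nor treatment, had 210 (1.96%) and 210 (1.96%). For later introns the crossed shares were 2.08% for shARID1A DMSO with shControl rapamycin and 1.88% for shARID1A rapamycin with shControl DMSO. These counts were not set beside those of regions of every class.

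The strongest first-intron region lay in PACS1, the gene of a sorting protein of the trans-Golgi network, at chr11:66118931-66120390 (hg38), 50055 bp from the nearest TSS. It ranked at 0.0246% of the list in shARID1A with rapamycin, 0.0131% in shARID1A with DMSO, 0.0120% in shControl with rapamycin and 0.00766% in shControl with DMSO, and all 4 lists placed it in intron 1. The KDM2A region followed, at chr11:67239402-67241541, with 0.0268%, 0.0416%, 0.0301% and 0.0326%. The region of CTNND1, the gene of the adhesion protein p120 catenin, at chr11:57777813-57779515 stood at 0.217%, 0.164%, 0.117% and 0.0728%. The PACS1 region thus ranked 11th, 6th, 6th and 4th in the 4 lists. Chromosome 11, where PACS1, KDM2A and CTNND1 lie, held 8.6%, 5.8%, 5.7% and 7.5% of the first-intron peaks of the strongest 10%. Of all first-intron peaks it held 5.2%, 5.5%, 5.3% and 5.4%. For peaks of every class the shares were 6.0%, 6.0%, 6.0% and 6.3%, against 4.9%, 5.0%, 4.8% and 4.9%.

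Next in mean rank were ZNF337 (chr20:25696195-25697093, near the RefSeq start), AHCY (chr20:34302542-34303610), ZNF253 (chr19:19865683-19866721), NCOA2 and JAK1. AHCY ranked at 0.228% and 0.285% in the shARID1A libraries with rapamycin and DMSO, against 0.591% and 0.628% in the shControl libraries with rapamycin and DMSO. JAK1, the gene of a cytokine receptor kinase, ranked at 0.918%, 1.53%, 0.816% and 1.27% at chr1:64897717-64898860 and was placed in intron 1 by every list. ZNF337, ZNF253 and NCOA2, a nuclear receptor coactivator gene, were each put within 1 kb of a TSS by at least 1 list.

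Among regions that every list called distal first-intron and that lay away from RefSeq starts, PACS1, CTNND1 and JAK1 led. They were followed by SMIM2-AS1 (chr13:44141678-44142709), HS3ST3B1 (chr17:14308866-14309660), MICAL3 (chr22:18000503-18002085), MECOM (chr3:169661594-169663264) and LRP5 (chr11:68313723-68315721). The MECOM gene encodes a zinc finger transcription factor and LRP5 a Wnt co-receptor. MECOM ranked at 3.04% and 3.55% in the shARID1A libraries with rapamycin and DMSO, against 1.97% and 2.03% in the shControl libraries with rapamycin and DMSO. LRP5 ranked at 3.17% and 5.40%, against 1.71% and 1.16%. The lists differ in length and content, so these ranks describe each list and show no change between libraries.

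Most regions present with one hairpin and absent with the other were weak, with a median mean rank of 80.8% for those of both shARID1A lists and 75.7% for those of both shControl lists. The best ranked, given next, stood higher than that by selection. In both shARID1A lists and neither shControl list, the best ranked were in LINC02274 (chr14:73825192-73825830), PRSS3 (chr9:33777397-33777699), KALRN (chr3:124217483-124217982), GRIK1 (chr21:29849646-29849986), IQSEC2 (chrX:53317070-53317884) and ANK1. LINC02274 led with 29.3% with rapamycin and 36.4% with DMSO. KALRN, a guanine nucleotide exchange factor gene, had 35.8% and 45.9%, and GRIK1, a kainate receptor subunit gene, 42.8% and 43.1%.

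In both shControl lists and neither shARID1A list, the best ranked were in INPP4A (chr2:98457169-98457689), TULP4 (chr6:158332130-158332684), AC110275.1, EIF2S1 (chr14:67371385-67371948), SCARB2 (chr4:76200837-76201208) and SYT7 (chr11:61577489-61578119). INPP4A, a phosphoinositide phosphatase gene, had 26.8% with rapamycin and 38.7% with DMSO. EIF2S1, the gene of the alpha subunit of translation initiation factor eIF2, had 27.7% and 47.9%, and the rapamycin list placed its peak in a later intron. SCARB2, a lysosomal membrane protein gene, had 50.4% and 26.7%.

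**Figure D4:**
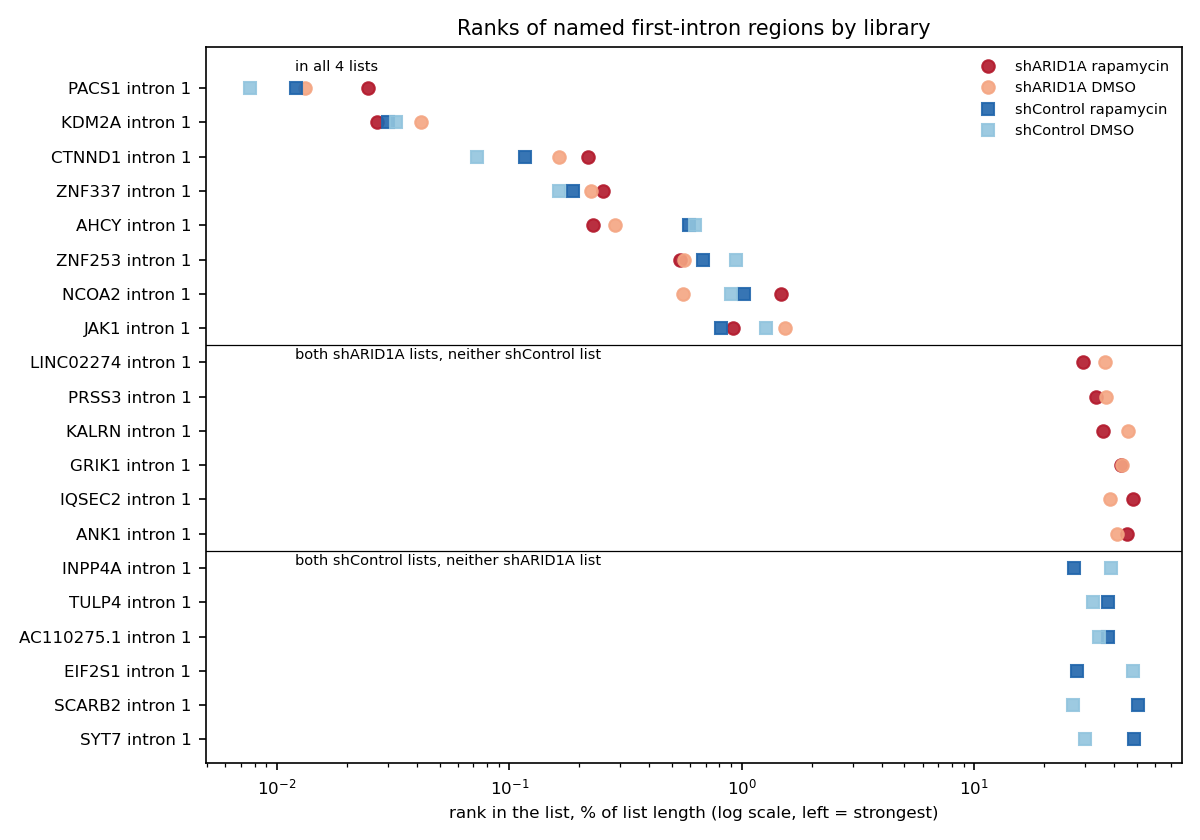
Rank of named first-intron regions in each list (x axis, % of list length on a log scale, strongest at the left), 1 line per region named by its host gene, 1 mark per library that has a peak there. The 8 strongest regions lie between 0.00766% and 1.53% in all 4 libraries, and the best ranked regions of 1 hairpin only, chosen for their rank, between 26.7% and 50.4%.

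Regions of one treatment were also mostly weak, with a median mean rank of 85.0% for those of both rapamycin lists and 79.7% for those of both DMSO lists. Best ranked in both rapamycin lists and neither DMSO list were BEST3 (chr12:69693817-69694411), GTF2A1 (chr14:81219308-81220034), FRY, CPB1, PTTG1IP and NET1, with 43.4% in shARID1A and 38.8% in shControl for BEST3, a chloride channel gene. GTF2A1, a subunit gene of the general transcription factor TFIIA, had 56.1% and 41.5%. NET1 stood at 91.1% in shARID1A and 19.4% in shControl, where its peak was put 901 bp from a TSS and so was not distal. The FRY peak of shARID1A was placed in a later intron. Best ranked in both DMSO lists and neither rapamycin list were LINC01663, KLF3 (chr4:38666939-38667429), GPRIN3, ZNF609, KMT5B (chr11:68209187-68209779) and AL162724.1. KLF3, a Kruppel-like repressor gene, had 42.8% in shARID1A and 31.9% in shControl, and KMT5B, a histone H4 methyltransferase gene, 49.5% in shARID1A and 41.3% in shControl.

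With ARID1A knockdown in DMSO, 1244 of 5820 distal first-intron peaks were gained, that is, overlapped no peak of the shControl list, or 21.4%, against 17.7% of all peaks. Lost were 2447 of 7051, or 34.7%, against 27.6% of all peaks. Score-weighted later-intron peaks were gained in 23.2% and lost in 37.7%. In the stronger 50% of the lists by score, 61 first-intron peaks (2.92%) were gained and 165 (5.98%) lost, against 2.05% and 4.41% of all peaks there and 2.99% and 7.94% of score-weighted later-intron peaks. The shARID1A DMSO list skips 6666 of its peak numbers (12.7%), for a reason not given in the sources used here. Of the lost first-intron peaks 888 (36.3%) lay in intervals with a skipped number, and outside such intervals 1559 of 5690 (27.4%) were lost, against 20.3% of all peaks and 29.1% of score-weighted later-intron peaks. Of the 14428 lost peaks of every class, 8463 lay outside such intervals.

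The best ranked gained peaks in DMSO, with their rank in the list in parentheses, were in ARHGAP32 (27.9%), VPS54 (30.1%), EEFSEC (31.4%), AL160408.1 (32.5%), DMXL2 (33.9%) and AC068512.1 (34.8%). ARHGAP32 encodes a GTPase-activating protein and VPS54 a subunit of the GARP tethering complex. The 5 best ranked lost peaks were in CMIP (18.7%), APBA1 (21.1%), SNAP25-AS1 (23.9%), CALD1 (25.7%) and SCARB2 (26.7%). CALD1 encodes the actin-binding protein caldesmon. Of these 5 lost peaks, only that of SCARB2 had no overlapping peak in shARID1A cells with rapamycin, and all 5 had one in shControl cells with rapamycin. The APBA1 peak lay in an interval with a skipped number.

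With knockdown in rapamycin, 1256 of 5692 first-intron peaks (22.1%) were gained, against 17.9% of all peaks, and 2287 of 6625 (34.5%) lost, against 26.7% of all peaks. Score-weighted later-intron peaks were gained in 23.8% and lost in 36.8%. In the stronger 50%, 51 (2.57%) were gained and 152 (5.98%) lost, against 2.37% and 4.22% of all peaks there and 4.15% and 8.52% of score-weighted later-intron peaks. The list of shARID1A with rapamycin skips no number, and that of shControl with rapamycin skips 1093 (2.15%). Of the gained first-intron peaks 78 (6.21%) lay in intervals with such a skip, and outside them 1178 of 5547 (21.2%) were gained, against 17.3% of all peaks, with a difference of -1.73 points from score-weighted later-intron peaks. Of the 8030 gained peaks of every class, 7522 lay outside these intervals. The best ranked gained peaks were in STX18 (24.0%), LINC00824 (26.0%), ATPAF2 (28.8%), LINC02274 (29.3%), AC072022.1 (29.8%) and FSTL4 (30.4%). Of these gained peaks, only that in LINC02274 had no overlapping peak in shControl cells with DMSO. The best ranked lost peaks were in AC074011.1 (21.3%), LINC00609 (22.2%), PDGFC (23.6%), TMEM51-AS1 (24.6%), NCOA3 (24.9%) and ZNF467 (24.9%). PDGFC encodes a platelet-derived growth factor and NCOA3 a nuclear receptor coactivator, and all 6 lost peaks had an overlapping peak in shARID1A cells with DMSO.

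Many gained and lost peaks were in a single list, and first-intron peaks were close to all peaks in this. Of the 2447 first-intron peaks lost in DMSO, 558 (22.8%) overlapped a peak of shARID1A cells with rapamycin and 1052 (43.0%) one of shControl cells with rapamycin. Of all peaks lost in DMSO these shares were 24.4% and 42.0%. For 1190 of the 2447 (48.6%) no other list had an overlapping peak, against 49.6% of all peaks lost in DMSO. Of the 2287 lost in rapamycin, 722 (31.6%) overlapped a peak of shARID1A cells with DMSO, 1197 (52.3%) one of shControl cells with DMSO, and 877 (38.3%) none of any other list, against 40.3% of all peaks lost in rapamycin. First-intron peaks gained with knockdown in DMSO overlapped a peak of shARID1A with rapamycin in 29.5% and of shControl with rapamycin in 33.3%. All peaks so gained did in 34.2% and 34.1%. Those gained in rapamycin overlapped a peak of shARID1A with DMSO in 32.6% and of shControl with DMSO in 35.1%. All peaks so gained did in 35.95% and 34.7%. Of the first-intron peaks gained with knockdown, 53.4% in DMSO and 50.6% in rapamycin were in no other list, against 49.8% and 48.6% of all gained peaks. For rapamycin in shARID1A cells the shares were 45.9% of gained and 41.3% of lost first-intron peaks, against 45.3% and 41.5% of all such peaks. In shControl cells they were 59.7% and 64.5%, against 58.2% and 63.1%.

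**Figure D5:**
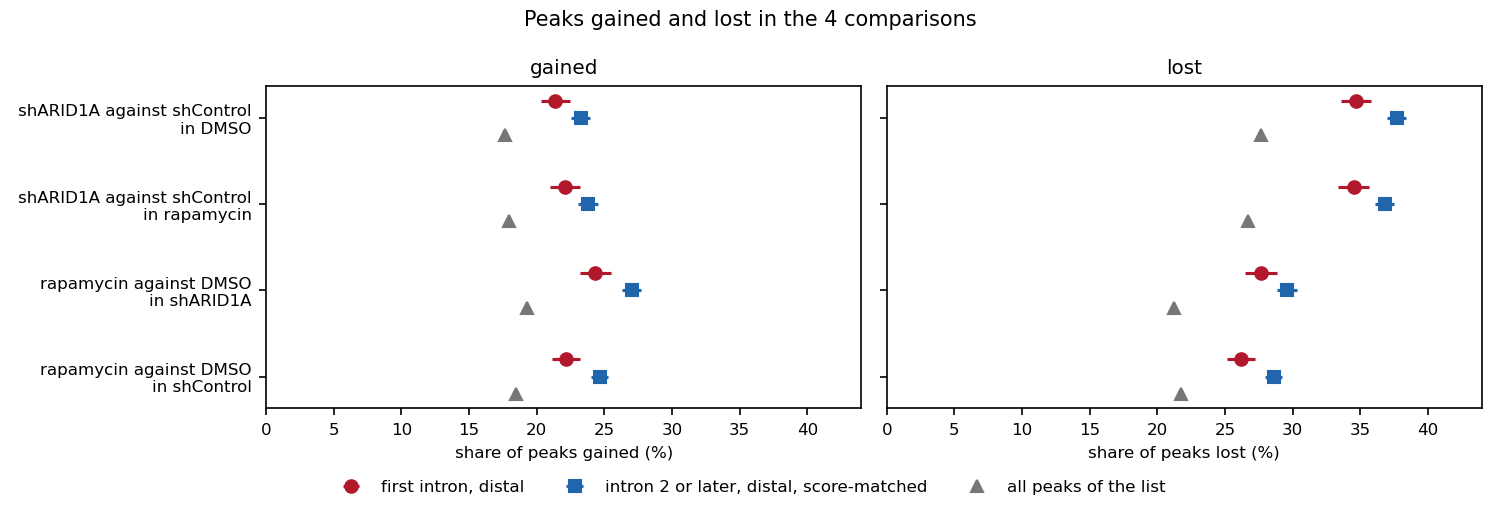
Share of peaks gained (left panel) and lost (right panel) in the 4 comparisons (x axis, %), for distal first-intron peaks (circles), score-weighted later-intron peaks (squares) and all peaks of the list (triangles), with 95% intervals from counting error. First introns lie between the other 2 marks in every comparison, for example 34.7% lost with knockdown in DMSO against 37.7% for later introns and 27.6% for all peaks.

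Rapamycin in shARID1A cells gained 1384 of 5692 first-intron peaks (24.3%), against 19.3% of all peaks, and lost 1609 of 5820 (27.6%), against 21.2% of all peaks. Score-weighted later-intron peaks were gained in 27.0% and lost in 29.6%. Of the gained first-intron peaks 509 lay in intervals where the shARID1A DMSO list skips a number, and outside these 875 of 4747 (18.4%) were gained, against 13.7% of all peaks and 20.3% of score-weighted later-intron peaks. Of the 8618 gained peaks of every class, 5052 lay outside these intervals. In the stronger 50%, 35 (1.77%) were gained and 74 (3.55%) lost, against 1.34% and 2.03% of all peaks there and 2.41% and 3.45% of score-weighted later-intron peaks. The best ranked gained peaks were in MAPK4 (31.1%), ACACA (33.4%), EGFR (38.3%), ALDH1A2 (38.7%), RAP1GAP2 (39.2%) and ST3GAL2 (40.5%). ACACA encodes acetyl-CoA carboxylase, the rate-limiting enzyme of fatty acid synthesis, and EGFR the epidermal growth factor receptor. The ACACA and RAP1GAP2 peaks were in no other list. The best ranked lost peaks were in PDGFC (17.8%), ZNF467 (26.6%), ACSS3 (27.9%), GREB1L (28.2%), LINC01663 (28.4%) and NCOA3 (28.4%), and all 6 had an overlapping peak in shControl cells with DMSO.

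Rapamycin in shControl cells gained 1468 of 6625 first-intron peaks (22.2%), against 18.5% of all peaks, and lost 1846 of 7051 (26.2%), against 21.7% of all peaks. Score-weighted later-intron peaks were gained in 24.7% and lost in 28.6%. In the stronger 50%, 58 (2.28%) were gained and 78 (2.83%) lost, against 1.72% and 2.56% of all peaks there and 2.68% and 4.53% of score-weighted later-intron peaks. Of all lost first-intron peaks 111 (6.01%) lay in intervals where the shControl rapamycin list skips a number, and outside them 1735 of 6853 (25.3%) were lost, against 20.8% of all peaks and 27.6% of score-weighted later-intron peaks. Of the 11341 lost peaks of every class, 10530 lay outside these intervals. The best ranked gained peaks were in AC114401.1 (28.1%), AC114488.1 (30.1%), NFE2L3 (31.5%), AC024909.1 (33.1%), RSPRY1 (34.2%) and DOCK5 (35.4%). NFE2L3 encodes a cap'n'collar transcription factor and DOCK5 a Rac exchange factor. The best ranked lost peaks were in RAB11FIP5 (15.5%), ARHGAP17 (27.7%), STX18 (29.7%), SIPA1L3 (31.5%), KLF3 (31.9%) and NREP (32.0%). The RAB11FIP5 peak, in the gene of a recycling endosome adaptor, had an overlapping peak in both shARID1A lists, and the SIPA1L3 peak in no other list. The rapamycin comparison in shARID1A cells shares a list with each of the knockdown comparisons, as does that in shControl cells, so their counts are given side by side only.

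Some genes held many first-intron regions. By nearest gene the most were 15 for PLD1, a phospholipase D gene (3 in all lists), 14 for AC131182.1 in MAML3, 13 for NANOGP4 in CHN2, 12 for AP006287.2 in PACS1 and 12 for TRIO. LINC00824, RPL7P11 in RERE, MIR3921 in FILIP1L, AC093414.1 in TRAK1 and RNU6-979P in JAZF1 had 11 each. By host gene, a grouping chosen after the values were seen, KCNIP4 had 24 regions, DIP2B 20, MAML3 18, DOCK4 18, and PACS1, FILIP1L, TRAK1 and TRIO 17 each.

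TRIO, a guanine nucleotide exchange factor gene, was open in its first intron at 5 regions in shARID1A with rapamycin and 8 in shARID1A with DMSO, against 12 in shControl with rapamycin and 13 in shControl with DMSO. AUTS2 was open at 4 and 4 in the shARID1A libraries, against 7 and 9 in the shControl libraries. Of its 16 regions, 12 were in a single list. MAML3, a Notch coactivator gene, was open at 10 and 11, against 10 and 16. KCNIP4, whose regions span chr4:20772844-21901861, was open at 12 and 16, against 15 and 17. DOCK4, a Rac exchange factor gene, was open at 11 and 13, against 14 and 12. Across the libraries, shControl with DMSO held the most for TRIO, AUTS2, MAML3 and KCNIP4, and shControl with rapamycin for DOCK4. Of the other hosts with most regions, DIP2B, PACS1 and FGD4 also had the most in shControl with DMSO. TRAK1 had the most in shARID1A with DMSO, open at 11 and 14, against 12 and 12. FILIP1L was open at 10 and 13, against 12 and 13. The shControl DMSO list is also the longest, with 7051 first-intron peaks.

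Among the gene lists used to look at function, 20 of 38 adhesion, cytoskeleton and EMT genes (52.6%) were the nearest gene of a first-intron region, with 45 regions, 28 of them in all lists. Over all 20037 protein-coding RefSeq genes the share was 15.2%, and 1978 of their 4867 regions (40.6%) were in all lists. Both shares are the background for the gene lists below. The share of regions in all lists was 62.2% for adhesion, 60.0% for mTOR, 57.1% for AP-1 and 56.5% for hepatocyte genes. It was 45.5% for progenitor, 36.8% for YAP/TEAD and Hippo, 34.6% for TGF-beta and Wnt, and 33.3% for SWI/SNF genes. LAMC1, a laminin chain gene, and TNS3, a focal adhesion protein gene, had 6 regions each with 3 in all lists, and MYH9, the non-muscle myosin heavy chain gene, 4 with 3. By host gene, regions lay in 27 of 38 adhesion, 21 of 47 mTOR, 7 of 25 AP-1 and 11 of 37 hepatocyte genes. They lay in 5 of 17 progenitor, 15 of 32 YAP/TEAD and Hippo, 10 of 25 TGF-beta and Wnt, and 10 of 30 SWI/SNF genes. Over all protein-coding RefSeq genes this was 3813 of 20037. Gene counts below go by nearest gene unless the host is named. Gene length was not matched, and long genes have more room for intronic peaks.

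Of the YAP/TEAD targets and Hippo components, 12 of 32 had a region, 38 regions in all with 14 in all lists. WWC1, an upstream Hippo component, had 7 regions with 5 in all lists, and its best stood at a mean rank of 12.9%. CCN2, a classical YAP target, had 4 regions with 3 in all lists, the best at 17.2%, and none of them was in a first intron of CCN2 itself. MYOF had 1 peak in each shARID1A list, against 2 with rapamycin and 4 with DMSO in shControl, and NT5E had none in either shARID1A list, against 2 and 2. DOCK5 had 3 and 3, against 6 and 3. WWC1 had 7 and 7, against 6 and 7. TEAD1, a TEAD factor gene, had 0 and 2, against 0 and 0, and by host gene 6 and 9, against 0 and 0. As 6 of the 10 regions hosted by TEAD1 had a peak of some class in all lists, a count of 0 in the shControl lists comes at these 6 from the class or host that those lists gave, not from a missing peak. By nearest gene, the list as a whole had 20 and 22 peaks in the shARID1A libraries with rapamycin and DMSO, against 29 and 30 in the shControl libraries. Over all first-intron peaks the numbers were 5692 and 5820, against 6625 and 7051. Genes of the list with a peak numbered 7 and 9, against 12 and 10, by nearest gene, and 9 and 13, against 13 and 12, by host gene. The contrast between hairpins thus depends on how a peak is given to a gene.

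Of the hepatocyte genes, 10 of 37 had a region, 23 in all with 13 in all lists. CPS1, the first enzyme of the urea cycle, had 4 regions with 3 in all lists, and NR1H4, the bile acid receptor gene FXR, 2 with 2, the best at 19.2%. Of the liver progenitor and biliary genes 4 of 17 had one, PROM1, GPC3, CDH6 and SOX4, with 11 regions and 5 in all lists. These lists had 15 and 15 hepatocyte peaks in the shARID1A libraries, against 14 and 17 in the shControl libraries, and 6 and 10 progenitor peaks, against 7 and 7.

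Of the mTOR pathway and mTORC1-linked metabolic genes, 12 of 47 had a region, 20 in all with 12 in all lists. IRS1, the insulin receptor substrate gene, had 6 regions with 4 in all lists, the best at 12.4%, and its peaks numbered 4 in shARID1A with rapamycin, 6 in shARID1A with DMSO, 4 in shControl with rapamycin and 6 in shControl with DMSO. SREBF1, the lipogenic transcription factor gene, had 2 regions in all lists, the best at 16.8%. By nearest gene its peaks numbered 3 in shARID1A with rapamycin and 1 in each other library, and by host gene 3 and 2. As both regions had a peak of some class in all lists, these counts show no region missing from a library. The whole list had 12 and 13 peaks in the rapamycin libraries of shARID1A and shControl, against 13 and 16 in the DMSO libraries. Over all first-intron peaks the numbers in this order were 5692 and 6625, against 5820 and 7051.

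Of the AP-1 and immediate early genes 9 of 25 had a region, 14 in all with 8 in all lists. Their best regions were split between strong and weak mean ranks. NR4A1 stood at 7.14%, FOSB at 10.4%, ATF3 at 11.9% and MAFK at 12.4%. MAF stood at 78.7%, MYC at 79.2%, KLF6 at 89.7% and JUN at 95.96%, with EGR3 between the strong and the weak. None of the regions nearest to FOSB, EGR3 or JUN was in a first intron of that gene itself. Of the TGF-beta and Wnt signalling genes 9 of 25 had 26 regions, 9 in all lists, with 8 for ZNRF3, a ubiquitin ligase that removes Wnt receptors, and 5 for SMAD3. Of the SWI/SNF subunits 3 of 30 had a region by nearest gene, SS18L1, BCL11A and ARID1A. By host gene 10 of 30 had one, with 12 regions, 8 of them in all lists. The region nearest to ARID1A had a peak in shControl with rapamycin and in no other list, at a rank of 99.7%. The first intron of ARID1A itself held 3 regions, 1 of them in all lists.

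Marker lists of other cell types were checked beside these. None of 14 leukocyte markers was the nearest gene of a first-intron region, 3 of 12 endothelial markers were, none of them in all lists, 4 of 12 stellate cell and fibroblast markers, with PDGFRA at a mean rank of 7.92%, and 4 of 12 neuronal markers, with MAP2 at 7.58%. Stellate cell and fibroblast markers had 1 and 1 peaks in shARID1A with rapamycin and DMSO, against 3 and 5 in shControl. Over all first-intron peaks the numbers were 5692 and 5820, against 6625 and 7051. The COL1A1 region had a peak of some class in all lists. Its count of 0 in both shARID1A lists thus comes from the class or gene given there, not from a missing peak. Open chromatin near a marker is not expression of it, and the part of these counts in the other results was not tested.

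The RefSeq starts under distal first-intron peaks differed in letters from those under peaks near a TSS. A window from 250 bases before to 50 after the start was whole inside a distal first-intron peak of some list, and inside no peak that any list put within 1 kb of a TSS, for 172 genes. Its median G and C content was 61.0%, against 66.7% for 13066 windows under near-TSS peaks and 58.7% for all 35116 windows. GGGCGG stood in 86 of the 172, against 74.2% and 45.0% of the other sets, and TGANTCA, the AP-1 letters, in 10.5%, against 4.04% and 7.71%. The 119 windows under later-intron peaks had 52.3% G and C, GGGCGG in 31.1% and TGANTCA in 23.5%. GGAATG stood in 16.3% of the 172, against 10.3% of windows under near-TSS peaks, 4928 of the 35116 windows in all and 18.5% of windows under later-intron peaks. Each motif was counted on both strands. A GC box can share its last letters with the start of a TEAD core.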

How the data were processed

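Open chromatin was measured by ATAC-seq in 4 libraries, 1 per group. BWA and MACS2 2.0 on GRCh38 (hg38) are named in the submitters' processing notes; settings, read depth and the treatment of duplicates were not given in the sources used here. Every library has its own list with position, score, annotation and distance to the nearest TSS, per the file headers. The deposited score is the authors' own, of a scale not given in the sources used here, and ranked peaks within a list only. The precision is that of the number of peaks.

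Members, gene lists and comparisons were chosen with earlier results of these data known. Shares have exact Clopper-Pearson 95% intervals. Later-intron shares were averaged over score deciles with first-intron weights, with intervals of differences from binomial variances, after the step was tested on simulated data. No test was made, with 1 library per group. Computing used Python 3.11.15, pandas 2.3.3, NumPy 2.4.6, SciPy 1.17.1 and matplotlib 3.10.9.

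Named regions were the 8 best mean ranks in all lists, the 6 best gained and lost per comparison, the 6 best of each hairpin or treatment pattern and the 10 nearest genes with most regions. Sequences and starts are RefSeq's (GRCh38.p14). No genome was used, so motifs were searched in RefSeq promoter windows in place of peaks, and all motifs besides AP-1 and TEAD were added after the data were seen. Of 301 list genes, 290 were named in the lists. A few items that these rules name are not reported here.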

Additional observations from a re-analysis of the deposited data

How the results depend on the processing

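The lead of first introns in peaks found in every other list was positive in 55 of 55 alternatives, from 0.670 to 4.21 points. It left its interval in 5. These were the stronger 50% of each list, with 2.67 points in shARID1A with rapamycin and 0.690 in shARID1A with DMSO, genes with both classes, with 0.670 and 1.38, and no shARID1A DMSO list, with 2.58 in shARID1A with rapamycin. The last alternative gives no value for the shARID1A DMSO list itself. The cause was not tested. Alternatives here and below share peaks and lists, so they are not independent of each other.

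The share gained or lost, minus that of later introns, was negative in 83 of 84 alternatives, from -3.56 points up. In the stronger 50% the difference was -0.0611 for gains with knockdown in DMSO, -0.646 for gains with rapamycin in shARID1A, -0.395 for gains with rapamycin in shControl, and turned to 0.0950 for losses with rapamycin in shARID1A. Without intervals with a skipped number it was -1.74 for losses with knockdown in DMSO, and comparisons against a list with no skips have no such value.

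In the order shARID1A with rapamycin, shARID1A with DMSO, shControl with rapamycin and shControl with DMSO, the first-intron share of distal intronic peaks was 32.9%, 32.6%, 32.1% and 32.3% above 5000 bp and 33.8%, 33.3%, 32.7% and 32.8% without single-intron transcripts. It was 35.0%, 34.6%, 34.0% and 34.2% without peaks near a RefSeq start, 34.8%, 34.8%, 34.2% and 34.3% with peaks of 1 class in every overlap, and 34.9%, 34.8%, 34.2% and 34.3% with hosts so classed. In the stronger 50% it was 37.1% in shARID1A with DMSO, 36.3% in shControl with rapamycin and 35.9% in shControl with DMSO. The median rank was 64.2%, 63.4% and 61.4% in the first 3 libraries without peaks near a RefSeq start, 64.3%, 63.8%, 61.6% and 61.0% with peaks of 1 class, and 64.6%, 63.9%, 61.6% and 60.9% with hosts so classed.

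Alternatives on RefSeq starts, width, promoter hosts, class in every overlap and skipped numbers were chosen after seeing the data. No paired analysis was possible because each group had 1 library. Read depth was not given in the sources used here, so an absent weak peak cannot be told apart from one under the detection limit of a list.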
